A study of Homo sapiens with 32 samples.

Results

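Semaphorins, plexins, neuropilins, SLITs and ROBOs, the cell-surface and secreted guidance cues and their receptors, were described in human RPE-1 cells that had been deprived of serum and then given it back. The genes were chosen by symbol alone: SEMA3 to SEMA7 with a letter, PLXNA to PLXND, NRP1 and NRP2, SLIT1 to SLIT3, and ROBO1 to ROBO4. The deposited table held 37 such genes among its 19023 genes: 6 semaphorins of class 3, 6 of class 4, 2 of class 5, 4 of class 6, 1 of class 7, 9 plexins, 2 neuropilins, 3 SLITs and 4 ROBOs. SEMA3A also matches the rule and was not analysed here.

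RPE-1 is an immortalised wild-type line from retinal pigment epithelium. All groups were first kept for 18 h without serum. They were collected at 0 h (no serum added), 5 h, 10 h or 15 h of serum, with 4 biological replicates per time for RNA-seq of total RNA after ribosomal RNA removal, and 4 for Ribo-seq, which sequences the RNA fragments that ribosomes protect (footprints). No culture was kept without serum to the later times, so the effect of serum and that of time cannot be told apart, and no group was of cells growing without interruption. In bulk libraries such as these, fewer cells expressing a gene and less RNA per cell cannot be told apart.

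Semaphorins are ligands, and class 3 members are secreted, whereas classes 4 to 7 are held at the membrane. Plexins are their main receptors, whose cytoplasmic part acts on small GTPases and so on integrin adhesion and the actin cytoskeleton. Most class 3 semaphorins need a neuropilin as the ligand-binding co-receptor. SLITs are large secreted proteins that bind ROBO receptors and act on the actin cytoskeleton through srGAP, Ena/VASP and Abl proteins. These systems were described in axon guidance and also shape adhesion, migration and vessel growth in epithelia and other tissues.

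RNA-seq libraries held 595851 to 1107470 counts and footprint libraries 2851423 to 9901322, so footprints resolve smaller changes. Common variation between replicates, as edgeR's biological coefficient of variation, was 0.185 in RNA and 0.0547 in footprints. Levels are given as CPM, which are counts scaled to a common library size with TMM factors, and changes as log2 ratios ± SE from edgeR's quasi-likelihood fits, with 4 libraries a group. A gene was called when its Benjamini-Hochberg adjusted p, taken over the whole table of tested genes, was under 0.05. Of the retinal pigment epithelium markers, MITF, OTX2 and MERTK had 359, 108 and 91 RNA counts over all libraries, whereas RPE65 had 1, TYR had 2 and TTR had 0. Of the simple epithelium markers, KRT8 and KRT18 were at means of 673 and 790 CPM in RNA, whereas KRT19, CDH1 and EPCAM had 7, 2 and 2 counts. Of the mesenchymal markers, VIM, FN1, CDH2 and THY1 were at means of 5990, 2380, 376 and 113 CPM, and COL1A1 had 24 counts. PECAM1, CDH5, PTPRC and RBFOX3, which mark endothelial, blood and neuronal cells, had 2 to 7 RNA counts each. TEK, CD68 and MAP2 of these last lists had 527, 234 and 154. RNA libraries with replicate number 2 were the highest of their group for 5 of 8 tested plexins at 5 h, 7 of 8 at 10 h and 7 of 8 at 15 h, where they were highest for 33.3%, 32.2% and 29.9% of all tested genes. The 0 h RNA library 3 was the highest for 14 of 21 tested members (31.8% of all genes). In footprints the 5 h library 2 was the highest for 20 of 28 members (31.95% of all genes), the 10 h library 4 for 17 of 28 (28.49%), and the 15 h library 1 for 13 of 28 and 7 of 9 plexins (30.97%). The part of these libraries in the results was examined only by leaving libraries out and by fits with a term for replicate number.

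After serum most of the detected guidance genes were lower, SEMA7A was far higher, and 4 plexins (PLXNA1, PLXNA2, PLXNA3 and PLXND1) were higher in footprints. Of the 37 genes, 21 passed the filter on low counts in both assays and 7 in footprints only (PLXNB3, ROBO3, ROBO4, SEMA4B, SEMA4G, SEMA6C and SLIT3). The other 9 (ROBO2, SEMA3E, SEMA3G, SEMA4A, SEMA4D, SEMA5B, SEMA6A, SEMA6D and SLIT1) were tested in neither and had 0 to 46 RNA counts and 3 to 61 footprint counts over the 16 libraries of each assay. A gene that is high at 0 h alone can pass the filter through those libraries, so the counts that follow describe the genes that passed.

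In RNA, 9 of 21 members were called at 5 h against 0 h (1 higher, 8 lower), where 35.9% of all genes tested were called, 19.2% higher and 16.7% lower. At 10 h the count was 12 (1 higher, 11 lower), against a background of 44.8% called, 23.3% higher and 21.5% lower. At 15 h it was 13 (1 higher, 12 lower), against 50.9% called, 25.4% higher and 25.4% lower. In these fits, which hold no term for replicate number, the higher member was SEMA7A each time. The median log2 change in RNA over the members was -0.74, -0.80 and -0.83 at 5, 10 and 15 h, and over all genes -0.03, -0.03 and -0.04.

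In footprints, 25 of 28 members were called at 5 h against 0 h (6 higher, 19 lower), where 75.7% of all genes were called, 35.2% higher and 40.5% lower. At 10 h 27 were called (7 higher, 20 lower), with 78.4% of all genes called, 39.4% higher and 39% lower. At 15 h 24 were called (4 higher, 20 lower), with 79.7% called, 40.1% higher and 39.6% lower. The median log2 change over the members was -0.64, -0.87 and -0.84, and over all genes -0.07, -0.02 and -0.01.

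The direction of a footprint change depends in part on how libraries are scaled. With library totals in place of TMM factors, the all-gene median moved to -0.36, -0.30 and -0.35 at 5, 10 and 15 h, and the higher share of all footprint calls to 29.6%, 35.2% and 33.7%, against 46.5%, 50.3% and 50.4% by TMM. In RNA the higher share at 5 h and 15 h was 43.1% and 38.3%, against 53.38% and 50.01% by TMM. The members then split into 5 higher and 20 lower at 5 h, 5 and 21 at 10 h, and 2 and 23 at 15 h in footprints, and into 1 and 8, 1 and 12, and 1 and 13 in RNA. Changes below are on the TMM scale.

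**Figure D1:**
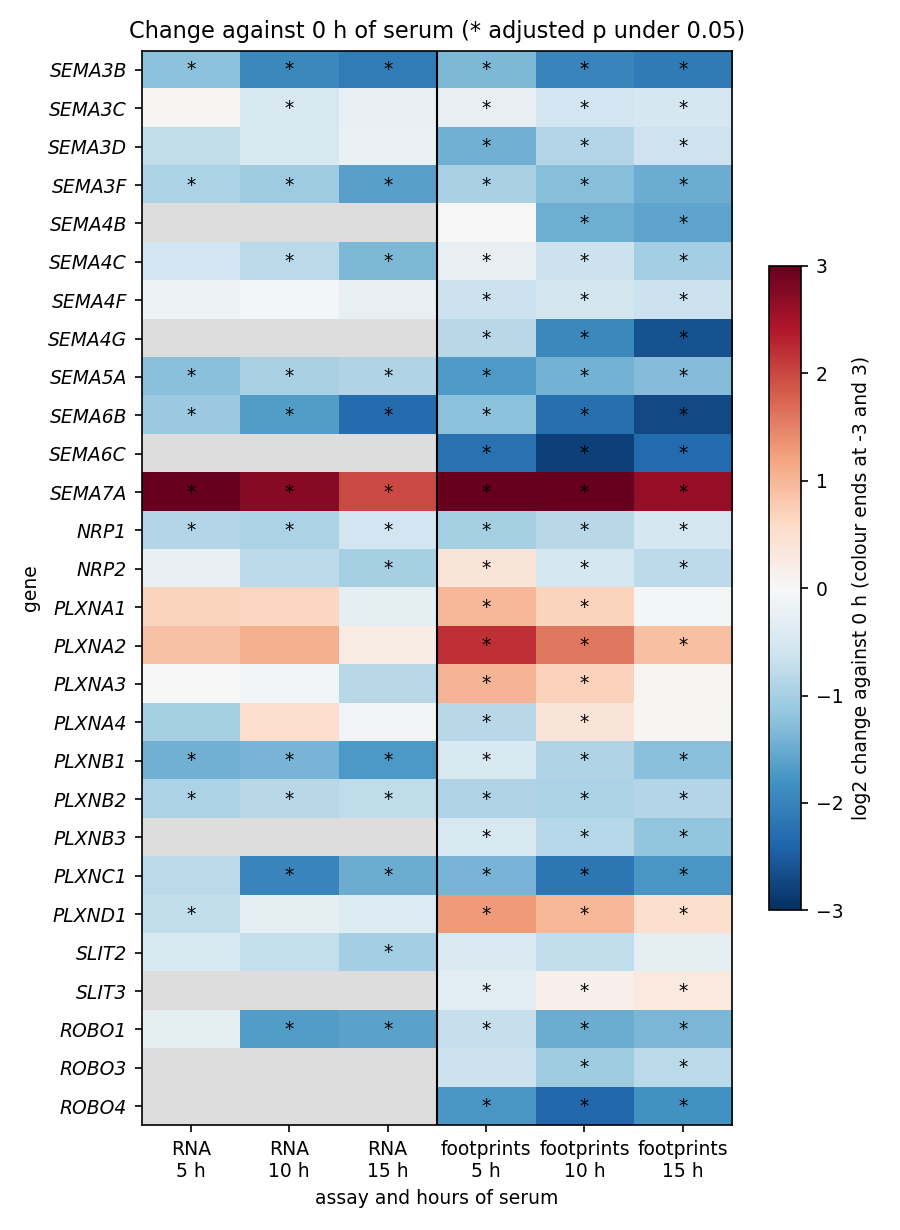
Log2 change at 5, 10 and 15 h against 0 h for every tested member, in RNA (left) and footprints (right), with genes grouped by role down the page, calls starred and grey where the gene was not tested. SEMA7A is the strong riser in both assays, PLXNA1, PLXNA2, PLXNA3 and PLXND1 are higher in footprints at 5 h and 10 h, and most other tested members are lower.

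SEMA7A, a semaphorin anchored in the membrane by a lipid and able to signal through integrins as well as PLXNC1, was the member that changed most. SEMA7A RNA was at 23.01, 32.8, 43.3 and 43.3 CPM at 0 h, 512, 719, 511 and 545 CPM at 5 h, 174, 259, 278 and 235 CPM at 10 h, and 114, 171, 154 and 118 CPM at 15 h. Footprints on it were at 57.4, 66.5, 52.00 and 54.9 CPM at 0 h, 1371, 1517, 1422 and 1422 CPM at 5 h, 525, 429.9, 497 and 586 CPM at 10 h, and 389, 329.8, 352 and 338 CPM at 15 h. Every library at each serum time was above every 0 h library in both assays, 5 h was the highest time, and successive times did not overlap. In RNA the log2 change was 4.02 ± 0.22 at 5 h (fold 16.2, adjusted p = 3.58e-12, edgeR), 2.74 ± 0.21 at 10 h and 1.98 ± 0.22 at 15 h. In footprints it was 4.64 ± 0.09 at 5 h (fold 24.9, adjusted p = 1.5e-27), 3.15 ± 0.09 at 10 h and 2.61 ± 0.09 at 15 h.

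The decline of SEMA7A after 5 h was measured directly. At 10 h against 5 h it fell by 1.28 on the log2 scale in RNA and by 1.49 in footprints, and both changes were called. At 15 h against 10 h its RNA change of -0.76 ± 0.18 (adjusted p = 0.0133, edgeR) lost its call when any of 4 libraries was left out (10 h replicates 2 and 3, 15 h replicates 1 and 4, adjusted p up to 0.0874). The footprint change of -0.53 ± 0.07 was called under every alternative. The excess of the footprint change over the RNA change, its change of translational efficiency (TE), was 0.56 ± 0.23 at 5 h and missed the threshold (adjusted p = 0.163).

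Among the 8736 genes tested in both assays, those with the pattern most like SEMA7A over the 8 group means (4 times, 2 assays) were GARS1, SLC3A2 and TNFAIP3, with Pearson's r of 0.9949, 0.9942 and 0.9883 on mean log2 CPM. GARS1 is the glycyl-tRNA synthetase, SLC3A2 the heavy chain of several amino acid transporters, and TNFAIP3 a ubiquitin-editing enzyme known from NF-kB signalling. The points share libraries, and the correlation is a description.

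The 120 bases upstream of the RefSeq start of SEMA7A (GRCh38.p14, chr15:74433959-74434078, minus strand, written 5′ to 3′ toward the start) are shown because it is the member that rose most.
SEMA7A: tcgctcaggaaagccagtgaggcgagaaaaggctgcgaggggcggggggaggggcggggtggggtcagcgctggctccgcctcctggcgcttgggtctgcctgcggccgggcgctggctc
The stretch is rich in runs of G, and of the 250 bases upstream of the start 70.0% were G or C, against a median of 58.0% over 27305 RefSeq promoters. No letters of the serum response element (CArG box), of the AP-1 motif TGACTCA or of the CREB motif TGACGTCA were found in its window of 300 bases (250 before the start, 50 after), on either strand.

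**Figure D2:**
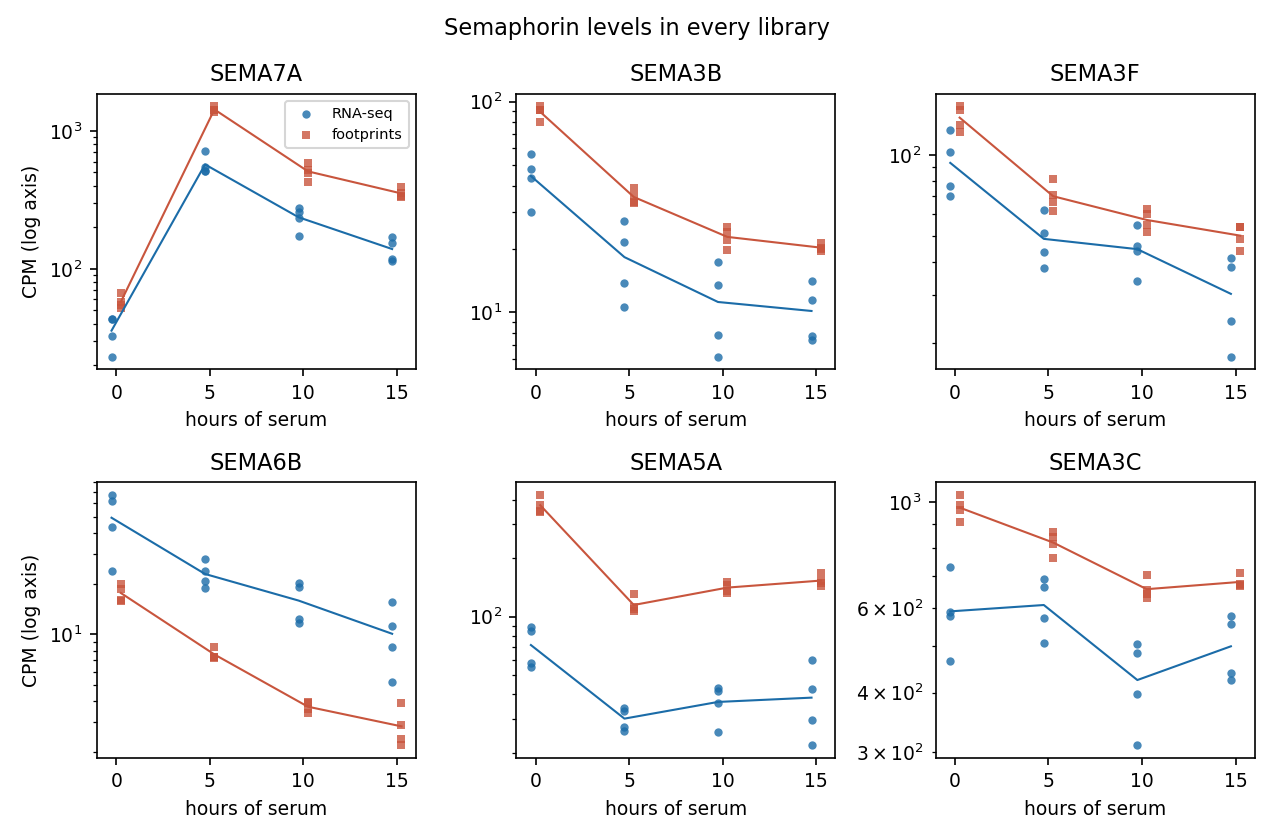
CPM in every library (log axis) against hours of serum for SEMA7A, SEMA3B, SEMA3F, SEMA6B, SEMA5A and SEMA3C, with points for libraries and lines through the means, RNA in blue and footprints in red. SEMA7A peaks at 5 h and stays above its 0 h libraries, while SEMA3B, SEMA3F and SEMA6B libraries at 15 h lie below all of their 0 h libraries.

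The secreted class 3 semaphorins were lower after serum. All 4 tested in footprints fell at 5, 10 and 15 h, and in RNA 2, 3 and 2 of 4 fell at these times. Over all genes, 40.5%, 39% and 39.6% were called lower in footprints at these times, and 16.7%, 21.5% and 25.4% in RNA. SEMA3B, a class 3 ligand known as a candidate tumour suppressor, changed most. SEMA3B RNA was at 43.6, 47.7, 56.3 and 29.9 CPM at 0 h, 13.8, 27.1, 10.6 and 21.6 CPM at 5 h, 6.14, 17.3, 7.80 and 13.5 CPM at 10 h, and 7.35, 14.02, 7.75 and 11.5 CPM at 15 h. SEMA3B footprints were at 91.1, 95.4, 79.8 and 91.6 CPM at 0 h, 35.6, 38.9, 33.4 and 33.2 CPM at 5 h, 19.7, 23.98, 22.2 and 25.3 CPM at 10 h, and 19.6, 21.4, 19.9 and 20.3 CPM at 15 h. No serum library reached the lowest 0 h library in either assay. The log2 change was -1.24 ± 0.30, -1.93 ± 0.32 and -2.09 ± 0.33 in RNA at 5, 10 and 15 h (adjusted p = 0.00296, 4.6e-05 and 1.7e-05, edgeR), and -1.34 ± 0.07, -1.97 ± 0.08 and -2.13 ± 0.08 in footprints. SEMA3B was thus at a footprint level 4.38-fold lower at 15 h than at 0 h.

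SEMA3F, a ligand that acts mainly through NRP2, lies near SEMA3B on chromosome 3. SEMA3F RNA was at 76.3, 103, 124 and 70.3 CPM at 0 h, 62.1, 51.1, 43.6 and 37.9 CPM at 5 h, 33.8, 54.8, 43.7 and 45.9 CPM at 10 h, and 24.2, 38.3, 41.3 and 17.7 CPM at 15 h. SEMA3F footprints were at 122, 147, 129.7 and 152 CPM at 0 h, 61.8, 81.2, 66.6 and 70.99 CPM at 5 h, 54.9, 60.00, 51.5 and 62.6 CPM at 10 h, and 53.8, 43.8, 48.5 and 54.01 CPM at 15 h. The 0 h libraries stayed above all serum libraries in both assays. The RNA change was -0.96 ± 0.24, -1.06 ± 0.24 and -1.62 ± 0.25 at 5, 10 and 15 h (adjusted p = 0.00349, 0.00102 and 1.36e-05), and the footprint change was -0.98 ± 0.08, -1.28 ± 0.08 and -1.48 ± 0.08. The regions just upstream of 1 RefSeq start of each gene (GRCh38.p14, plus strand, chr3:50272999-50273118 for SEMA3B and chr3:50154938-50155057 for SEMA3F) are shown because both genes fell at all 3 times in both assays. The SEMA3B region lies inside the annotated gene, which runs from 50260226 to 50277546, so it precedes an internal start. Other starts of the gene were not searched.
SEMA3B: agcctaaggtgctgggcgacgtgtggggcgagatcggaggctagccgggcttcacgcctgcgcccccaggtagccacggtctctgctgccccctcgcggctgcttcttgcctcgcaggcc
SEMA3F: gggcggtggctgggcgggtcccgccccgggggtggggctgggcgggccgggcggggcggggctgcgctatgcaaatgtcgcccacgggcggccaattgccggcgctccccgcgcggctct
Of the 250 bases upstream, 57.6% were G or C in SEMA3B and 82.0% in SEMA3F, and neither window held any of the motifs searched. RefSeq annotates the antisense genes SEMA3B-AS1 and SEMA3F-AS1 over them, and nothing used here says whether the counting used strand.

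SEMA3C, a ligand of both neuropilins, was the most abundant semaphorin at 0 h and moved less. SEMA3C RNA was at 589, 577, 466 and 731 CPM at 0 h, 573, 508, 691 and 664 CPM at 5 h, 506, 310.4, 398 and 485 CPM at 10 h, and 556, 425, 440.2 and 577 CPM at 15 h. Footprints ran 909 to 1036 CPM at 0 h, 765 to 867 CPM at 5 h, 629.7 to 702 CPM at 10 h and 669 to 709 CPM at 15 h, without overlap between 0 h and any serum time. The footprint change was -0.24 ± 0.05, -0.57 ± 0.05 and -0.52 ± 0.05 at 5, 10 and 15 h, and all 3 were called. In RNA the 10 h change of -0.47 ± 0.17 was called (adjusted p = 0.0237), with overlapping libraries, and was lost without 0 h replicate 4, 10 h replicate 2 or 10 h replicate 3 (adjusted p up to 0.168).

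SEMA3D, another secreted class 3 ligand, dipped at 5 h and partly returned. SEMA3D footprints were at 45.9, 46.7, 46.7 and 41.4 CPM at 0 h, 14.9, 15.6, 17.6 and 17.7 CPM at 5 h, 27.3, 27.9, 20.4 and 21.4 CPM at 10 h, and 28.98, 31.5, 27.2 and 30.1 CPM at 15 h. All serum libraries were below the 0 h libraries, and the 5 h libraries were the lowest. The change was -1.45 ± 0.10, -0.89 ± 0.09 and -0.61 ± 0.09 at 5, 10 and 15 h, and the rise at 10 h against 5 h was 0.56 ± 0.10 (adjusted p = 7.06e-06, edgeR). Its RNA, from 182 counts in all, ran 9.69 to 26.9 CPM at 0 h, 5.18 to 13.04 CPM at 5 h, 8.11 to 14.3 CPM at 10 h and 8.41 to 20.8 CPM at 15 h and was called at none of these times (adjusted p of 0.12, 0.278 and 0.664 at 5, 10 and 15 h). SEMA3E and SEMA3G, with 53 and 7 footprint counts over all libraries, were not tested.

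The membrane-bound semaphorins of classes 4 to 7 were also mostly lower: of 8 tested in footprints, 6 fell and 1 rose at 5 h, 7 fell and 1 rose at 10 h, and 7 fell and 1 rose at 15 h, where the riser was SEMA7A. Of all genes tested in footprints, 40.5%, 39% and 39.6% fell at these times, and 35.2%, 39.4% and 40.1% rose. SEMA6B, a transmembrane ligand of A-class plexins, fell most steadily. SEMA6B RNA was at 43.6, 67.8, 62.1 and 23.9 CPM at 0 h, 20.7, 28.1, 18.8 and 23.8 CPM at 5 h, 12.3, 19.2, 20.3 and 11.7 CPM at 10 h, and 8.40, 11.2, 15.5 and 5.21 CPM at 15 h. SEMA6B footprints were at 15.7, 18.7, 16.1 and 19.98 CPM at 0 h, 7.38, 8.45, 7.33 and 7.23 CPM at 5 h, 3.41, 3.58, 3.89 and 3.98 CPM at 10 h, and 3.91, 2.19, 2.88 and 2.38 CPM at 15 h. Footprints at the serum times did not overlap those at 0 h, and in RNA the 5 h libraries overlapped the 0 h libraries through 0 h replicate 4. The RNA change was -1.11 ± 0.30, -1.67 ± 0.31 and -2.32 ± 0.33 (adjusted p = 0.00577, 0.000148 and 5.43e-06, edgeR), and the footprint change was -1.23 ± 0.13, -2.26 ± 0.14 and -2.71 ± 0.15 at 5, 10 and 15 h. The footprint level per RNA was low for this gene, at a log2 ratio of -1.49 at 0 h, where the median of all genes was -0.34.

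SEMA5A, a transmembrane semaphorin with thrombospondin repeats, had more footprints per RNA than most genes, at a log2 ratio of 2.39 at 0 h (98.2nd percentile of 8736 genes). SEMA5A RNA was at 58.1, 84.7, 88.1 and 55.3 CPM at 0 h, 32.8, 34.1, 27.1 and 25.96 CPM at 5 h, 25.6, 41.3, 35.9 and 43.2 CPM at 10 h, and 29.4, 59.8, 42.6 and 21.9 CPM at 15 h. SEMA5A footprints were at 350.0, 375, 346 and 424 CPM at 0 h, 112, 132, 107 and 109 CPM at 5 h, 136, 151, 133 and 145 CPM at 10 h, and 167, 144, 153 and 149.7 CPM at 15 h. The 0 h footprint libraries were above every serum library, and in RNA only the 15 h group overlapped 0 h, through 15 h replicate 2. The footprint change was -1.71 ± 0.07, -1.41 ± 0.06 and -1.29 ± 0.06 at 5, 10 and 15 h, and the RNA change was -1.26 ± 0.27, -0.97 ± 0.26 and -0.89 ± 0.25. All 6 were called by edgeR, and the 15 h RNA call was lost without 15 h replicate 4 (log2 change -0.59, adjusted p = 0.0597).

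SEMA4C, a ligand of PLXNB2, fell step by step. SEMA4C RNA was at 21.8, 42.4, 60.6 and 38.9 CPM at 0 h, 29.3, 25.1, 34.1 and 21.6 CPM at 5 h, 17.4, 22.1, 35.9 and 19.8 CPM at 10 h, and 15.8, 17.8, 10.3 and 18.7 CPM at 15 h. SEMA4C footprints were at 25.7, 26.3, 22.9 and 25.5 CPM at 0 h, 20.04, 23.2, 19.02 and 21.9 CPM at 5 h, 15.05, 15.9, 15.5 and 17.7 CPM at 10 h, and 11.7, 10.3, 13.5 and 13.4 CPM at 15 h. Footprints at 10 h and 15 h were below all 0 h libraries, and those at 5 h overlapped them. The footprint change was -0.25 ± 0.10, -0.65 ± 0.10 and -1.03 ± 0.11 at 5, 10 and 15 h (adjusted p = 0.0196, 2.9e-07 and 2.31e-11), and the RNA change at 15 h was -1.35 ± 0.30 (adjusted p = 0.000735). The 5 h footprint call was lost without 0 h replicate 2 or 4 or 5 h replicate 3, and the 10 h RNA call of -0.81 ± 0.28 without any of 0 h replicates 2 and 3 and 10 h replicates 1, 2 and 4 (adjusted p up to 0.161). Its promoter was the only one of 34 member promoters matched that held the CREB motif TGACGTCA, which 1.98% of all 27305 promoters held. The motif, in capitals in the minus-strand sequence (GRCh38.p14, chr2:96870081-96870200), lies 40 to 33 bases before the start used. That start is an internal one, as the annotated gene runs from 96859718 to 96870830, and other starts were not searched.
SEMA4C: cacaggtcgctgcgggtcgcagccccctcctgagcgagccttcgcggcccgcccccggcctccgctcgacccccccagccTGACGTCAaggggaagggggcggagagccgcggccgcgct

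The other members of classes 4 and 6 had fewer counts. SEMA4F footprints were at 32.8, 31.2, 27.3 and 33.8 CPM at 0 h, 19.8, 23.7, 20.3 and 16.99 CPM at 5 h, 18.6, 19.6, 22.5 and 24.7 CPM at 10 h, and 20.01, 20.2, 17.9 and 21.6 CPM at 15 h, with 0 h above all serum libraries and a change of -0.64 ± 0.10, -0.56 ± 0.10 and -0.65 ± 0.10, while its RNA was not called at any serum time (log2 change -0.16, -0.07 and -0.26, adjusted p from 0.465 to 0.864). SEMA4B footprints were not called at 5 h (-0.02 ± 0.16, adjusted p = 0.935) and then fell by 1.46 on the log2 scale at 10 h against 5 h, to 3.29, 2.03, 2.92 and 1.82 CPM at 10 h, against 8.31, 6.62, 6.20 and 6.97 CPM at 5 h. Its 10 h and 5 h libraries did not overlap.

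SEMA4G and SEMA6C had 132 and 117 footprint counts over all libraries. SEMA4G was at 0.46, 0.767, 0.221 and 0.25 CPM at 15 h, against 3.25, 3.40, 2.20 and 2.27 CPM at 0 h, a change of -2.61 ± 0.38 (adjusted p = 7.02e-08, edgeR). SEMA6C was at 0.253, 0.358, 0.432 and 0.828 CPM at 10 h, against 2.96, 3.40, 2.20 and 4.22 CPM at 0 h, a change of -2.81 ± 0.37 (adjusted p = 8.89e-09). In both genes the 0 h libraries were above all libraries at the serum times, and the gene MRPL43 overlaps SEMA4G in the RefSeq annotation. Footprint counts at 0, 5, 10 and 15 h summed to 54, 43, 22 and 13 for SEMA4G and 65, 19, 14 and 19 for SEMA6C. Both passed the filter on low counts through their 0 h libraries, which favours genes that fall. Their p-values and lack of overlap are therefore description only.

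The neuropilins had footprint changes of opposite sign at 5 h. NRP1, co-receptor of class 3 semaphorins and of VEGF, was the second most abundant member per length at 0 h in footprints. NRP1 RNA was at 428, 489, 547 and 405 CPM at 0 h, 283, 253, 233 and 244 CPM at 5 h, 217, 238, 239 and 277 CPM at 10 h, and 271, 397, 299.5 and 277 CPM at 15 h. NRP1 footprints were at 807, 902, 884 and 857 CPM at 0 h, 413, 473, 426 and 423 CPM at 5 h, 486, 532, 442 and 479.8 CPM at 10 h, and 598, 626, 588 and 596 CPM at 15 h. All serum libraries were below all 0 h libraries in both assays. The RNA change was -0.89 ± 0.14, -0.94 ± 0.14 and -0.59 ± 0.14 (adjusted p = 4.6e-05, 1.45e-05 and 0.00158) and the footprint change -0.99 ± 0.06, -0.83 ± 0.06 and -0.52 ± 0.05 at 5, 10 and 15 h, so the fall was smaller at 15 h than at 10 h, and the footprint change of 0.31 ± 0.05 at 15 h against 10 h was called (adjusted p = 1.4e-05).

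NRP2, co-receptor of SEMA3F and of VEGF-C, had footprints at 65.4, 60.1, 63.2 and 66.9 CPM at 0 h, 72.8, 99.4, 85.5 and 78.3 CPM at 5 h, 42.7, 46.5, 41.3 and 48.9 CPM at 10 h, and 41.4, 34.8, 36.4 and 36.9 CPM at 15 h. The 5 h libraries were the highest and the 10 h and 15 h libraries were below all 0 h libraries. The change was 0.39 ± 0.08 at 5 h (adjusted p = 1.88e-05), -0.52 ± 0.08 at 10 h and -0.79 ± 0.08 at 15 h. With library totals the 5 h change was 0.10 and was not called (adjusted p = 0.221). NRP2 RNA, from 194 counts, was called lower at 15 h (-1.01 ± 0.36, adjusted p = 0.0248), a call lost without any of 0 h replicates 1 and 3 and 15 h replicates 1 and 4 (adjusted p up to 0.154).

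Plexins moved in both directions. In footprints 4 rose at 5 h (PLXNA1, PLXNA2, PLXNA3 and PLXND1) and 5 fell (PLXNA4, PLXNB1, PLXNB2, PLXNB3 and PLXNC1). At 10 h 5 rose, with PLXNA4 added, and 4 fell, and at 15 h 2 rose (PLXNA2 and PLXND1), 4 fell and 3 were not called. Of all genes tested in footprints, 35.2%, 39.4% and 40.1% rose at these times, and 40.5%, 39% and 39.6% fell. In RNA, without a term for replicate number, 3 of 8 tested plexins fell at each of these times and the other 5 were not called. The shares of all genes called lower in RNA were 16.7%, 21.5% and 25.4%. With a term for replicate number, PLXNA1 and PLXNA2 were called higher in RNA at 5 h and 10 h, and PLXNA4 lower at 5 h. Replicates of plexin RNA varied more than most genes: 5 of the 8 (PLXNA2, PLXNA3, PLXNA4, PLXNB1 and PLXNB2) had a biological coefficient of variation from 0.291 to 0.411, where the median of all genes was 0.168.

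PLXNA2, a receptor for class 3 and class 6 semaphorins, rose most of the plexins. PLXNA2 footprints were at 19.2, 26.98, 21.7 and 30.2 CPM at 0 h, 105, 123, 117 and 113 CPM at 5 h, 77.3, 69.1, 74.9 and 79.2 CPM at 10 h, and 54.1, 42.7, 46.4 and 46.8 CPM at 15 h. All serum libraries were above all 0 h libraries, and successive times did not overlap. The change was 2.19 ± 0.09 at 5 h (fold 4.57, adjusted p = 4.56e-22, edgeR), 1.58 ± 0.09 at 10 h and 0.91 ± 0.10 at 15 h. PLXNA2 RNA was at 7.27, 8.47, 23.1 and 10.46 CPM at 0 h, 15.5, 34.1, 18.8 and 17.3 CPM at 5 h, 10.2, 47.1, 26.5 and 17.1 CPM at 10 h, and 5.25, 25.2, 15.5 and 9.37 CPM at 15 h, with overlap at all times and a highest library numbered 2 at 5, 10 and 15 h. The RNA change was 0.87 ± 0.51 at 5 h and 1.07 ± 0.50 at 10 h, neither called without a term for replicate number (adjusted p = 0.201 and 0.0887, edgeR).

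PLXNA1 and PLXNA3, receptors that pair with neuropilins to bind class 3 semaphorins, rose less and were not called at 15 h. PLXNA1 footprints were at 46.2, 51.4, 48.1 and 52.3 CPM at 0 h, 89.4, 124, 90.9 and 95.6 CPM at 5 h, 76.7, 76.2, 73.8 and 91.5 CPM at 10 h, and 45.1, 48.9, 49.7 and 45.6 CPM at 15 h. PLXNA3 footprints were at 58.3, 66.7, 57.4 and 64.6 CPM at 0 h, 116, 147, 124 and 115 CPM at 5 h, 95.8, 98.3, 93.5 and 110.3 CPM at 10 h, and 73.8, 61.01, 59.00 and 65.9 CPM at 15 h. In both genes the 5 h and 10 h libraries were above all 0 h libraries and the 15 h libraries overlapped them. The PLXNA1 change was 0.999 ± 0.09 at 5 h, 0.67 ± 0.09 at 10 h and -0.06 ± 0.09 at 15 h (adjusted p = 2.35e-11, 8.19e-08 and 0.538), and that of PLXNA3 was 1.01 ± 0.08, 0.68 ± 0.08 and 0.05 ± 0.08 (adjusted p = 1.3e-13, 1.88e-09 and 0.559). Scaled by library totals, both were called lower at 15 h, at -0.41 for PLXNA1 and -0.29 for PLXNA3. In RNA neither was called at 5 h without a term for replicate number: PLXNA1 changed by 0.66 ± 0.32 at 5 h (adjusted p = 0.114) and PLXNA3 by 0.01 ± 0.39 (adjusted p = 0.993). PLXNA1 RNA was at 25.4, 58.3, 53.4 and 37.4 CPM at 0 h and 48.3, 100.3, 62.4 and 61.7 CPM at 5 h, higher at 5 h in each same-numbered pair. With the term PLXNA1 was called higher in RNA at 5 h (0.65, adjusted p = 0.00603, edgeR).

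PLXND1, the receptor of SEMA3E and a plexin known from blood vessel patterning, was higher in footprints while its RNA was not. PLXND1 RNA was at 27.9, 43.4, 47.6 and 40.4 CPM at 0 h, 24.2, 29.1, 17.7 and 23.8 CPM at 5 h, 21.5, 43.2, 35.9 and 30.6 CPM at 10 h, and 29.4, 39.2, 15.5 and 33.3 CPM at 15 h. PLXND1 footprints were at 36.7, 40.8, 33.9 and 36.4 CPM at 0 h, 89.4, 106, 84.1 and 81.8 CPM at 5 h, 66.9, 73.8, 72.4 and 79.03 CPM at 10 h, and 58.4, 48.3, 51.8 and 50.8 CPM at 15 h. Footprint libraries at each serum time were above all 0 h libraries, and the RNA groups overlapped. The footprint change was 1.29 ± 0.08, 0.99 ± 0.08 and 0.49 ± 0.09 at 5, 10 and 15 h (adjusted p = 1.62e-17, 5.94e-14 and 2.19e-06, edgeR), and the RNA change was -0.74 ± 0.28, -0.28 ± 0.26 and -0.41 ± 0.27. The RNA call at 5 h (adjusted p = 0.0426) was lost without any of 0 h replicates 2 and 3 and 5 h replicates 1, 3 and 4 (adjusted p up to 0.14). Scaled by library totals, the 15 h footprint change was 0.15 and was not called (adjusted p = 0.0931).

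PLXND1 was the member whose TE was called. At 5 h against 0 h it was the 1 of 21 members called in TE, where 6.47% of all genes were called and 4.13% called higher, with a change of 1.98 ± 0.27 (fold 3.93, adjusted p = 8.66e-07, edgeR interaction). At 10 h it was again the 1 member called, with 7.23% of all genes called, 5.44% called higher, and a change of 1.16 ± 0.25 (adjusted p = 0.00164). The log2 ratio of footprint to RNA CPM was -0.11, 1.93, 1.15 and 0.83 at 0, 5, 10 and 15 h, where the median of all genes was -0.34, -0.37, -0.24 and -0.23. Over all alternatives the TE change ran from 1.82 to 2.10 at 5 h and from 1.003 to 1.37 at 10 h and was called each time. By library totals 28.6% and 52.7% of all TE calls were higher at 5 h and 10 h, against 63.9% and 75.2% by TMM, and the all-gene median was -0.21 and -0.15, against -0.06 and -0.04. At 15 h the change was 0.75 ± 0.26 and missed the threshold (adjusted p = 0.0513), as did all members by edgeR, with 3 members at an unadjusted p under 0.05. DESeq2 called 1 member, PLXND1 (0.76, adjusted p = 0.0131), and 1279 of all 8736 genes. By edgeR 958 genes were called (11%), with 7.03% called higher.

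Other plexins had positive TE changes at 5 h that missed the threshold by edgeR. The change was 1.24 ± 0.52 for PLXNA2 (adjusted p = 0.17), 0.96 ± 0.36 for PLXNA3 (adjusted p = 0.117) and 0.92 ± 0.34 for PLXNB1 (adjusted p = 0.109). DESeq2 called PLXNA2 (1.32, adjusted p = 0.0315) and PLXNA3 (0.98, adjusted p = 0.0166). It also called more genes in the whole table, 789 of 8736 against 565 by edgeR. Without the RNA libraries numbered 2, a choice made after the values were seen, 4 members were called in TE at 5 h, among them PLXNA2 at 1.80 (adjusted p = 0.00792) and PLXNA3 at 1.22 (adjusted p = 0.0388). The share of all genes called in that fit is not given here, so this count describes the members alone. Between serum times edgeR called 0 members in TE at 10 h against 5 h (2 at an unadjusted p under 0.05) and 0.652% of all genes. DESeq2 called 0 members there and 115 of all genes. At 15 h against 10 h edgeR called 0 members (0 at an unadjusted p under 0.05) and 0 of all genes. DESeq2 called 0 members and 2 of all genes at that step.

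**Figure D3:**
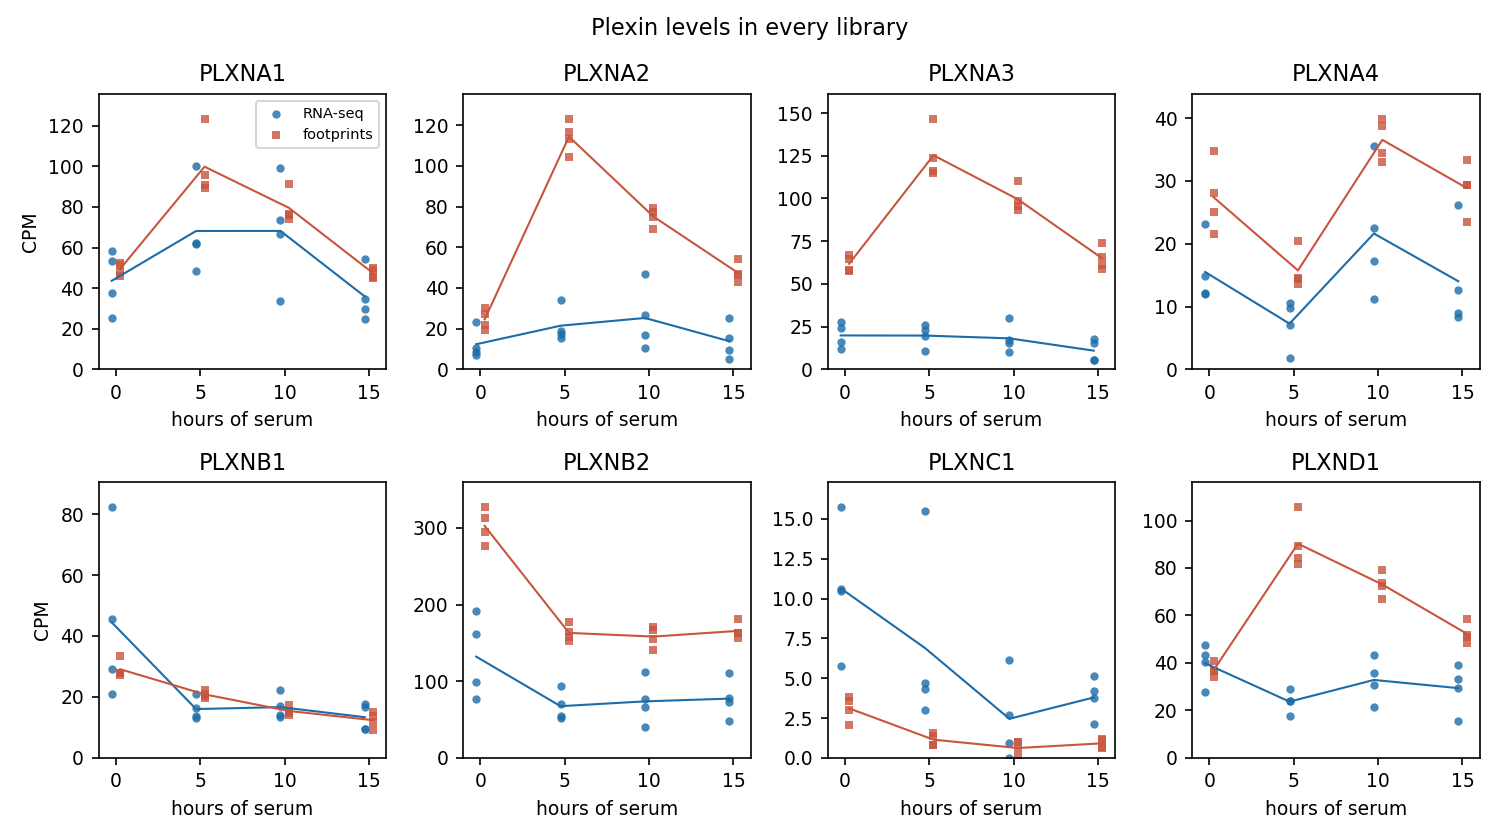
CPM in every library (linear axis) against hours of serum for the 8 plexins tested in both assays, with points for libraries and lines through the means, RNA in blue and footprints in red. Footprints of PLXNA1, PLXNA2, PLXNA3 and PLXND1 are highest at 5 h, while their RNA libraries overlap between 0 h and 5 h. With a term for replicate number, PLXNA1 and PLXNA2 were called higher in RNA at 5 h.

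PLXNA4, a receptor that pairs with neuropilins for class 3 semaphorins, went the other way at 5 h. PLXNA4 footprints were at 21.6, 34.8, 25.1 and 28.1 CPM at 0 h, 14.4, 20.4, 13.7 and 14.6 CPM at 5 h, 38.8, 33.04, 34.4 and 39.9 CPM at 10 h, and 33.4, 23.4, 29.3 and 29.4 CPM at 15 h. The 5 h libraries were the lowest, and the 10 h and 15 h libraries overlapped 0 h. The change was -0.83 ± 0.14 at 5 h (adjusted p = 7.52e-06), 0.39 ± 0.12 at 10 h (adjusted p = 0.00445) and 0.04 ± 0.13 at 15 h (adjusted p = 0.792). At 10 h against 5 h it rose by 1.22 in footprints and by 1.502 in RNA (adjusted p = 0.0181). The RNA call was lost without 10 h replicate 2 (1.19, adjusted p = 0.0737), and by library totals the 10 h footprint change was 0.11 and was not called and that at 15 h was -0.31 and was called.

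The B plexins, receptors of class 4 semaphorins that couple to RhoA through PDZ-RhoGEF and LARG, fell in footprints at all 3 times. PLXNB1 RNA was at 29.1, 45.5, 82.3 and 20.9 CPM at 0 h, 13.8, 21.1, 12.95 and 16.2 CPM at 5 h, 13.3, 22.1, 14.05 and 17.1 CPM at 10 h, and 9.45, 17.8, 16.8 and 9.37 CPM at 15 h. PLXNB1 footprints were at 33.4, 27.8, 27.3 and 27.8 CPM at 0 h, 21.1, 22.2, 20.4 and 19.6 CPM at 5 h, 15.4, 14.7, 14.1 and 17.4 CPM at 10 h, and 14.95, 11.7, 13.6 and 9.13 CPM at 15 h. Footprints at 0 h were above all serum libraries, and in RNA the 0 h library 4 lay within the range of the 5 h and 10 h libraries. The RNA change was -1.44 ± 0.35, -1.39 ± 0.34 and -1.72 ± 0.35, and the footprint change -0.47 ± 0.10, -0.91 ± 0.11 and -1.25 ± 0.11 at 5, 10 and 15 h, and all 6 were called under every alternative.

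PLXNB2, the most abundant plexin in footprints per length at 0 h, had RNA at 76.3, 161, 192 and 98.7 CPM at 0 h, 51.8, 93.3, 54.2 and 70.3 CPM at 5 h, 39.9, 112, 76.5 and 65.8 CPM at 10 h, and 48.3, 110.3, 77.5 and 72.9 CPM at 15 h. PLXNB2 footprints were at 276, 313, 294 and 327 CPM at 0 h, 153, 177, 164 and 158 CPM at 5 h, 155, 170.3, 140.2 and 167 CPM at 10 h, and 181, 162, 163 and 156 CPM at 15 h. Footprints at all serum times were below all 0 h libraries, and the RNA groups overlapped. The footprint change was -0.90 ± 0.06, -0.94 ± 0.06 and -0.88 ± 0.06 at 5, 10 and 15 h. The RNA changes of -0.95 ± 0.32, -0.84 ± 0.32 and -0.77 ± 0.31 were called with adjusted p of 0.0268, 0.0372 and 0.0487, and each call was lost with no filter beyond 1 count, without 0 h replicate 2 or 3, and without replicate 1, 3 or 4 of the serum time (adjusted p up to 0.266).

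PLXNB3 footprints were at 9.89, 7.45, 8.74 and 7.25 CPM at 15 h, against 17.8, 20.6, 18.3 and 17.9 CPM at 0 h, without overlap, a change of -1.19 ± 0.12 (adjusted p = 1.08e-11, edgeR). PLXNC1, the receptor of SEMA7A, had 142 footprint counts in all, 61 of them at 0 h. In footprints it passed the filter on low counts through its 0 h libraries, and in RNA mainly through them. Its 78 RNA counts split into 34, 20, 10 and 14 at 0, 5, 10 and 15 h. Its p-values and lack of overlap are therefore description only in both assays. It was at 1.01, 0.477, 0.973 and 0 CPM in footprints at 10 h, against 3.85, 2.97, 2.03 and 3.57 CPM at 0 h, with a change of -2.17 ± 0.38 (adjusted p = 2.36e-06), and the RNA change was -1.98 ± 0.58 (adjusted p = 0.00826). At 5 h, when SEMA7A was highest, the footprint change of PLXNC1 was -1.38 ± 0.34, and the groups did not overlap. Its RNA call at 15 h (-1.498 ± 0.54, adjusted p = 0.0252) was lost without 0 h replicate 1 or any of 15 h replicates 1, 2 and 4. CEP83 overlaps PLXNC1, and LAGE3 overlaps PLXNA3, in the RefSeq annotation.

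**Figure D4:**
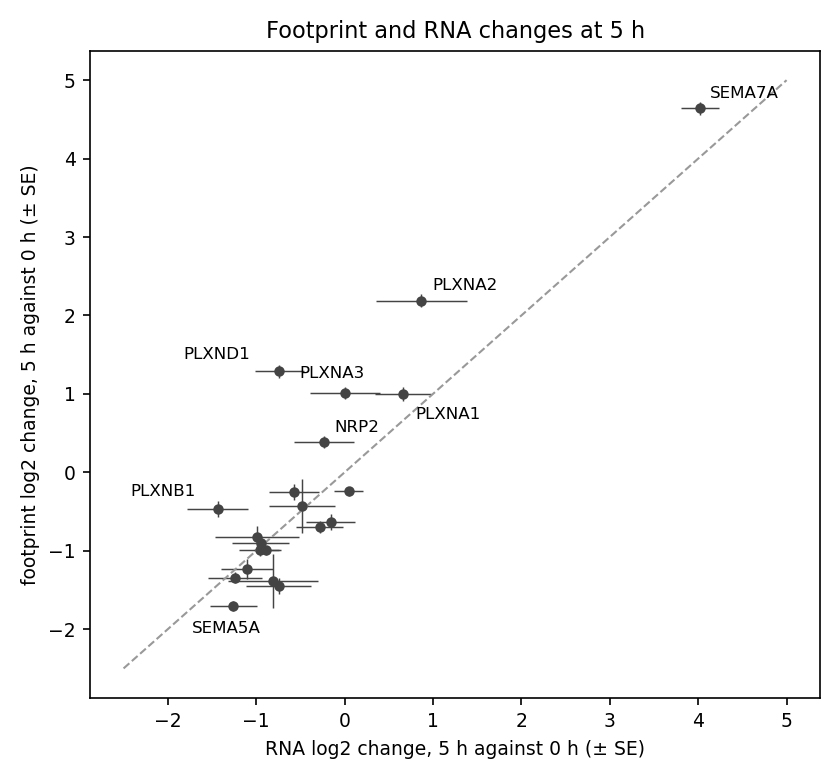
Log2 change in footprints against log2 change in RNA at 5 h against 0 h for the 21 members tested in both assays, with SE bars and a dashed line where both changes are equal. SEMA7A stands at the top right, at 4.02 in RNA and 4.64 in footprints, and PLXND1 lies above the diagonal, at -0.74 in RNA and 1.29 in footprints.

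SLIT2, a secreted ROBO ligand, was the most abundant member in RNA and one of the least loaded with footprints. SLIT2 RNA was at 4124, 3100.3, 8181 and 7954 CPM at 0 h, 4686, 3638, 5332 and 3076 CPM at 5 h, 3459.5, 2393, 5916 and 2458 CPM at 10 h, and 1981, 2335, 4615 and 2654 CPM at 15 h. SLIT2 footprints were at 789, 369, 338 and 348 CPM at 0 h, 340.5, 337, 305 and 371 CPM at 5 h, 255, 313, 165 and 371 CPM at 10 h, and 640.2, 280.0, 328 and 275 CPM at 15 h. The groups overlapped in both assays at all times. The log2 ratio of footprint to RNA CPM was -3.66, -3.63, -3.69 and -2.93 at 0, 5, 10 and 15 h, at percentiles 1.17, 0.82, 0.73 and 1.57 of the 8736 genes. RNA was called lower at 15 h (-1.01 ± 0.37, adjusted p = 0.0337, edgeR), a call lost without any of 0 h replicates 3 and 4 and 15 h replicates 1, 2 and 4 (adjusted p up to 0.157).

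SLIT2 footprints were not called at any serum time by edgeR with TMM factors (adjusted p = 0.282, 0.0742 and 0.474 at 5, 10 and 15 h), and their spread between replicates was wide. At 10 h they were called lower by DESeq2 (-0.76, adjusted p = 0.0389) and by edgeR with library totals (-1.02, adjusted p = 0.0182). Its biological coefficient of variation in footprints was 0.338, at percentile 99.7 of all genes, where the median was 0.0527. Replicate 1 was the high library at both 0 h (789 CPM, library total 2851423, the lowest of the 16) and 15 h (640.2 CPM, library total 4715658). The SLIT2 counts of the 16 footprint libraries ran only from 1526 to 2964, and the part of library depth in the CPM spread was not tested.

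SLIT3, another secreted ROBO ligand, showed the reverse balance, with 7841 footprint counts and 79 RNA counts over all libraries. SLIT3 footprints were at 69.8, 64.2, 71.1 and 67.1 CPM at 0 h, 53.3, 57.5, 53.4 and 51.2 CPM at 5 h, 71.1, 77.8, 72.5 and 84.00 CPM at 10 h, and 86.95, 88.8, 80.9 and 78.02 CPM at 15 h. The 5 h libraries were the lowest, below all 0 h libraries, and the 15 h libraries were above all 0 h libraries. The change was -0.34 ± 0.07 at 5 h (adjusted p = 2.51e-05), 0.16 ± 0.06 at 10 h and 0.30 ± 0.06 at 15 h (adjusted p = 7.91e-05). With library totals the 10 h and 15 h changes were -0.12 and -0.05 and were not called, so their direction rests on the scaling, and the 10 h call was also lost by DESeq2 (adjusted p = 0.0567) and without 0 h replicate 2, 10 h replicate 2 or 10 h replicate 4 (adjusted p up to 0.0925). SLIT1 had 61 footprint counts and was not tested. RefSeq places the microRNA genes MIR218-1 and MIR218-2 within the SLIT2 and SLIT3 genes, and the reads of overlapping transcripts were not analysed here.

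**Figure D5:**
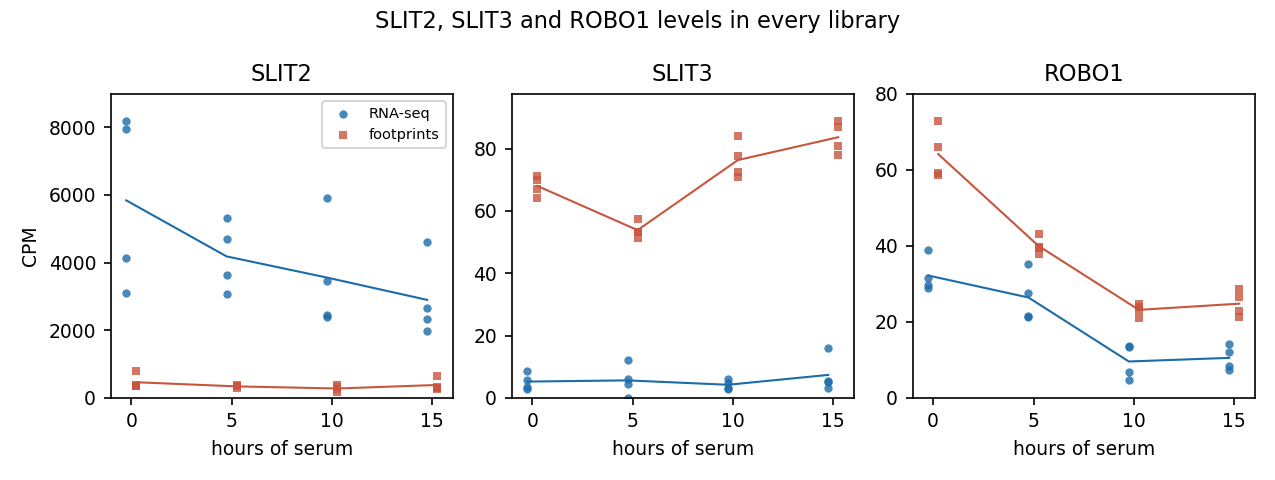
CPM in every library (linear axis) against hours of serum for SLIT2, SLIT3 and ROBO1, with points for libraries and lines through the means, RNA in blue and footprints in red. SLIT2 CPM is higher in RNA than in footprints, SLIT3 CPM is higher in footprints than in RNA, and ROBO1 is lower at 10 h and 15 h in both assays.

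The ROBO receptors tested were lower in footprints at 10 h and 15 h, where 39% and 39.6% of all genes were called lower. ROBO1, the broadly expressed SLIT receptor, had RNA at 38.8, 29.7, 28.9 and 31.4 CPM at 0 h, 27.6, 35.1, 21.2 and 21.6 CPM at 5 h, 13.3, 6.73, 4.68 and 13.5 CPM at 10 h, and 8.40, 12.1, 14.2 and 7.29 CPM at 15 h. ROBO1 footprints were at 59.2, 65.9, 58.6 and 72.8 CPM at 0 h, 37.7, 43.1, 39.6 and 39.4 CPM at 5 h, 23.01, 24.7, 20.97 and 23.9 CPM at 10 h, and 22.8, 28.7, 26.5 and 21.1 CPM at 15 h. RNA at 5 h overlapped 0 h, RNA at 10 h and 15 h lay below, and all serum footprint libraries were below 0 h. The RNA change was -0.28 ± 0.27, -1.68 ± 0.30 and -1.62 ± 0.30 at 5, 10 and 15 h (adjusted p = 0.436, 0.000103 and 0.000119), and the footprint change -0.69 ± 0.08, -1.48 ± 0.09 and -1.36 ± 0.09 (adjusted p = 4.78e-10, 7.03e-19 and 8.13e-18). At 10 h against 5 h it fell by 1.40 in RNA and by 0.79 in footprints on the log2 scale, and both were called. Without the RNA libraries numbered 2 the RNA change was -0.97 and was not called (adjusted p = 0.065).

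ROBO4, an endothelial ROBO family member, had 204 footprint counts, and its footprints were at 1.39, 0.835, 1.081 and 0.166 CPM at 10 h, against 5.03, 5.10, 4.40 and 4.55 CPM at 0 h, without overlap. Its change was -1.75 ± 0.28, -2.34 ± 0.30 and -1.83 ± 0.28 at 5, 10 and 15 h, and all 3 were called. ROBO4 footprint counts summed to 95, 40, 29 and 40 at 0, 5, 10 and 15 h. Only the 0 h group lay clearly above the filter on low counts in every library, which favours genes that fall. The calls and the lack of overlap are therefore description only. Of the listed endothelial markers, PECAM1, CDH5, VWF and ESAM had 25, 7, 39 and 51 footprint counts over all libraries, and TEK had 558. ROBO3, with 190 footprint counts, was lower at 10 h (-1.07 ± 0.32, adjusted p = 0.00296) and at 15 h (-0.80 ± 0.31, adjusted p = 0.0191), and the 15 h call was lost without 0 h replicate 2 or 3 or 15 h replicate 1 (adjusted p up to 0.0646). At 5 h ROBO3 footprints were at 1.16 to 2.37 CPM, against 2.11 to 3.19 CPM at 0 h, with overlap. That change was not called in the main fit. It was called by library totals (-0.93, adjusted p = 0.00652, edgeR) and without 0 h replicate 4 or 5 h replicate 1. ROBO2 had 6 footprint counts and was not tested.

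Between serum times most of the members called in footprints were lower at the later time. In RNA, 4 of 21 were called at 10 h against 5 h (PLXNA4 higher, ROBO1, SEMA3C and SEMA7A lower), where 19.7% of all genes were called (10.1% higher, 9.56% lower), and 1 at 15 h against 10 h (SEMA7A lower), where 5.91% were called (3.81% higher, 2.11% lower). The SEMA3C call at 10 h against 5 h was lost by DESeq2 (adjusted p = 0.0511), without the RNA libraries numbered 2, and without any of 5 h replicates 1, 3 and 4 and 10 h replicates 2 and 3 (adjusted p up to 0.167). In footprints, 21 of 28 were called at 10 h against 5 h (5 higher, 16 lower), where 61.7% of all genes were called (31% higher, 30.7% lower), and 12 at 15 h against 10 h (2 higher, 10 lower), where 41% were called (20.8% higher, 20.2% lower). The 5 higher at 10 h were NRP1, PLXNA4, SEMA3D, SEMA5A and SLIT3, and the 2 higher at 15 h were NRP1 and SEMA3D. PLXNA1, PLXNA2, PLXNA3 and PLXND1 were called lower in both steps. By library totals the higher share of all calls at 15 h against 10 h was 45.4% in RNA and 37.1% in footprints, against 64.4% and 50.6% by TMM, and the members split into 0 higher and 1 lower in RNA and 2 higher and 12 lower in footprints.

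Compared per counted length, as RPKM (CPM divided by the counted length in kilobases), a few ligands and NRP1 held most of the signal. At 0 h the order in footprints was SEMA3C at 443 ± 23.9, NRP1 at 318 ± 15.3, SEMA5A at 118 ± 11.4, SLIT2 at 108 ± 51.4 and SEMA3F at 68.8 ± 6.996 RPKM (SD, n = 4). SEMA5A and SLIT2 did not differ beyond their spread, nor did SLIT2 and SEMA3F. PLXNB2 at 55.4 ± 4.08, SEMA3D at 54.8 ± 3.09 and SEMA3B at 40.9 ± 3.08 followed, the first pair within their spread, and SEMA7A took position 9 at 29.7 ± 3.23 RPKM. The counted length of SEMA3D was 825 bases and that of SEMA4B 284 bases, shorter than the other members, so their levels per length rest on part of the gene.

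At 5 h SEMA7A led the footprints at 738 ± 31.3 RPKM, ahead of SEMA3C at 374 ± 20.04 and NRP1 at 160.0 ± 9.89. At 15 h SEMA3C at 310.0 ± 8.63, NRP1 at 222 ± 6.17 and SEMA7A at 181 ± 13.6 RPKM were the leading 3, each beyond the spread of the next. In RNA SLIT2 led at every time, at 1371 ± 612 RPKM at 0 h, ahead of SEMA3C at 269 ± 49.4 and NRP1 at 172 ± 23.6. At 5 h SEMA7A RNA at 295 ± 51.2 and SEMA3C RNA at 277 ± 38.3 RPKM did not differ beyond their spread.

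Other genes of the 2 pathways moved in both directions. Of 56 listed co-receptors and effectors, 38 were tested in RNA and 44 in footprints. In RNA 9 rose and 5 fell at 5 h, 8 rose and 8 fell at 10 h, and 6 rose and 11 fell at 15 h, with medians of -0.06, -0.09 and -0.08. In footprints 16 rose and 14 fell at 5 h, 18 rose and 18 fell at 10 h, and 14 rose and 22 fell at 15 h, with medians of 0.09, -0.11 and -0.22. Of all genes tested in RNA, 19.2%, 23.3% and 25.4% rose at these times, and 16.7%, 21.5% and 25.4% fell. In footprints 35.2%, 39.4% and 40.1% of all genes rose, and 40.5%, 39% and 39.6% fell.

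MICAL2, a flavoprotein of the MICAL family that oxidises actin, rose most in RNA, by 2.71 ± 0.32 at 5 h (adjusted p = 2.31e-06, edgeR), and by 2.87 ± 0.07 in footprints. SRGAP1, a GTPase-activating protein that binds ROBO1, rose by 1.99 ± 0.27 in RNA and 1.65 ± 0.06 in footprints at 5 h. The kinase ABL2 rose by 1.63 ± 0.18 in RNA at 5 h, and RND3, a small GTP-binding protein, by 1.30 ± 0.37. SRGAP2 and SRGAP3 went the other way: footprints of SRGAP2 changed by -1.84 ± 0.11 at 5 h, and SRGAP3 had 172, 9, 4 and 12 footprint counts over the 4 libraries at 0, 5, 10 and 15 h, a change of -4.67 ± 0.37 at 5 h (adjusted p = 2.03e-14). SRGAP3 passed the filter on low counts through its 0 h libraries, which favours genes that fall, so its p-value is description only.

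DPYSL3, a collapsin-response mediator protein, fell by 1.19 in RNA and by 1.34 in footprints at 10 h on the log2 scale. LIMK1, the kinase that phosphorylates cofilin, changed by -1.35 ± 0.24 in RNA at 15 h. VASP, an actin-filament elongation factor, changed at 10 h against 5 h by -0.97 ± 0.18 in RNA and -1.16 ± 0.06 in footprints. In TE at 5 h, FARP2, a Rac exchange factor of plexin signalling, rose by 1.11 ± 0.29 (adjusted p = 0.0116, edgeR), MICAL1 by 0.72 ± 0.22 (adjusted p = 0.0446), and ARHGEF12, which is LARG, changed by -0.61 ± 0.13 (adjusted p = 0.00131).

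RefSeq promoters were matched for 34 of the 37 genes; NRP1, SEMA6A and SEMA6B had no match. Searched on both strands over 300 bases, 0 of 34 held the CArG box, the AP-1 motif TGACTCA (or TGAGTCA) or the E2F motifs TTTGGCGC and TTTCCCGC, which 1.29%, 4.92%, 0.659% and 1.66% of all 27305 promoters held. The TEAD motif GGAATG was in 3 (SEMA4A, ROBO3 and PLXNB3, and 3836 of all promoters) and the FOXO motif GTAAACA in 2 (SEMA5B and SEMA3E, and 3.41% of all promoters). The median share of G and C in the 250 upstream bases was 64.0% over the 34 genes and 58.0% over all promoters, and PLXND1, PLXNA1, PLXNA3 and PLXNA2, which rose in footprints, had 88.8%, 84.4%, 82.8% and 72.4%. PLXNB1 and PLXNC1, which fell, had 59.6% and 53.6%, and SEMA3F and SEMA5A, which also fell, had 82.0% each.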

How the data were processed

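The authors deposited raw counts of reads per gene for each library, which are whole numbers that were not normalised. Per the submitters' processing notes, reads were handled with STAR 2.5.4a, GRCh38 and featureCounts 1.5.1; the annotation release, strand setting, molecular identifiers and shared reads are not given in the sources used here. Per the labels' protocols, RNA and footprint libraries were made with a small-RNA library kit after ribosomal RNA removal. All 32 columns were matched to samples by label, and 18905 of 19023 identifiers to symbols. The deposited length was a multiple of 3 in 96.46% of genes and is read as coding length.

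From the counts, edgeR 4.0.16 (R 4.3.3) gave TMM-scaled CPM and quasi-likelihood tests over 16 libraries per assay with time as the factor, on genes passing filterByExpr (8775 in RNA, 10959 in footprints), with 2-sided p-values and Benjamini-Hochberg adjustment across all of them. TE was the assay-by-time interaction over 32 libraries and 8736 genes. Changes are relative to the other genes of an assay. RefSeq promoters were of GRCh38.p14, with 1 start taken per gene. The members, the list of 56 pathway genes and the markers were chosen with earlier results of these data known. Genes were named as follows: every member, up to 4 called pathway genes of largest change per comparison, and the 3 genes most like SEMA7A. Alternatives were RLE factors, library totals, no filter beyond 1 count, DESeq2 1.42.0, a replicate block and leaving out each library; leaving out all RNA libraries numbered 2 was added after the values were seen. The procedure was tested on simulated data. Counts are of reads, so any counting error covers counting alone.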

Additional observations from a re-analysis of the deposited data

Results flagged for a closer look

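Of 196 groups of 4 libraries examined (each tested member, assay and time), 12 had a library far from the other 3, where the gap to the nearest of them, as a share of the group's range, was past Dixon's critical value. Chance flags about 1 in 20 groups. In the values that follow the library that stood apart is given before the range of the other 3.

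SLIT2 footprints stood apart at 0 h in replicate 1, at 789 CPM against 338 to 369 CPM, and at 15 h in replicate 1, at 640 CPM against 275 to 328 CPM. SEMA7A RNA at 5 h was at 719 CPM in replicate 2 against 511 to 545 CPM, and SEMA7A was called without that library. PLXNC1 RNA at 5 h was at 15.5 CPM in replicate 1 against 3.01 to 4.71 CPM, and without that library its change at 5 h was -1.40 and was called (adjusted p = 0.0495, edgeR). PLXNC1 passed the filter in RNA mainly through its 0 h libraries, so this p-value is description only.

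Among footprints of plexins, PLXNA1 at 10 h was at 91.5 CPM in replicate 4 against 73.8 to 76.7 CPM, PLXNA4 at 5 h at 20.4 CPM in replicate 2 against 13.7 to 14.6 CPM, and PLXNB1 at 0 h at 33.4 CPM in replicate 1 against 27.3 to 27.8 CPM. Among ROBO genes, ROBO3 at 15 h was at 0.69 CPM in replicate 1 against 1.63 to 1.77 CPM, and ROBO4 at 5 h at 1.90 CPM in replicate 4 against 1.16 to 1.27 CPM. Among semaphorins, SEMA3C at 15 h was at 709 CPM in replicate 4 against 669 to 675 CPM, SEMA3D at 0 h at 41.4 CPM in replicate 4 against 45.9 to 46.7 CPM, and SEMA6B at 5 h at 8.45 CPM in replicate 2 against 7.23 to 7.38 CPM.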

How the results depend on the processing

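Of 350 member results (21 genes in RNA, 28 in footprints and 21 in TE, 5 contrasts each), 150 were called by edgeR, and 123 of these were called under every alternative run. A change of direction was counted where either value was called: by library totals PLXNA3 and PLXNA4 footprints at 15 h were -0.29 and -0.31, and SLIT3 footprints at 10 h and 15 h were -0.12 and -0.048. The labels give the replicate numbers no shared culture, batch or day. The main fits used time alone, and so left out the relation by number given next for RNA. In RNA the deviations were related by number: same-numbered libraries had a median r of 0.198 (17 of 24 pairs over 0.1), against -0.079 for other pairs (14 of 72), and 11 of 16 libraries correlated best with their own number. In footprints the medians were 0.034 (1 of 24 pairs over 0.1) and -0.01 (2 of 72), and 7 of 16 libraries did so. With the replicate block, 13 members were called in RNA at 5 h (3 higher, 10 lower, against 9 without it), 15 at 10 h (3 higher, 12 lower, against 12) and 13 at 15 h (as without it). The higher members called besides SEMA7A were PLXNA1 (0.65 at 5 h and 0.64 at 10 h, adjusted p = 0.00603 and 0.00511) and PLXNA2 (0.84 and 1.06, adjusted p = 0.0414 and 0.00601). PLXNA4 and SEMA4C at 5 h (-1.02 and -0.58, adjusted p = 0.0387 and 0.0489) and SLIT2 at 10 h (-0.73, adjusted p = 0.0467) were also called lower in RNA. The block gave 2 in RNA at 15 h against 10 h (1 without it, PLXNA1 added at -0.89), 13 in footprints at 15 h against 10 h (12 without, SEMA3F added at -0.21), 3 in TE at 5 h (1 without, PLXNA2 and PLXNB1 added, adjusted p = 0.0228 and 0.0245) and 2 in TE at 15 h (0 without, PLXND1 and SEMA3C, adjusted p = 0.0225 and 0.0172), and ended no call. DESeq2 called 3 in TE at 5 h and 1 at 15 h, with 789 and 1279 of all genes called, against 565 and 958 by edgeR. RLE factors gave 1 in TE at 15 h. Leaving out 1 library gave, at 5, 10 and 15 h against 0 h, 7 to 11, 10 to 13 and 8 to 13 members in RNA (8 without 15 h replicate 4), 24 to 26, 26 to 27 and 23 to 24 in footprints, and 1 to 2, 1 to 2 and 0 to 1 in TE. At 10 h against 5 h and 15 h against 10 h it gave 2 to 4 (2 without 10 h replicate 2) and 0 to 2 in RNA, 20 to 21 and 9 to 14 in footprints, and 0 and 0 in TE. With no filter beyond 1 count, the RNA calls of PLXNB2 (all 3 times), PLXND1 (5 h), SEMA3C (10 h) and SLIT2 (15 h) and the 5 h footprint call of SEMA4C were lost. Without the RNA libraries numbered 2, 1 member was called in RNA at 10 h against 5 h, 4 in TE at 5 h and 3 in TE at 15 h. The shares of all genes called with the block or with libraries left out are not given here, so these counts describe the members alone. The cause of these shifts was not tested. Depth in RNA limits what could be tested: the 7 members tested in footprints alone had 9 to 105 RNA counts over all libraries.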
